A study of Mus musculus with 2 samples.

Results

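Intronic contigs on the gene strand are stretches of RNA-seq coverage that lie inside an annotated gene, on the strand of that gene, but touch none of the exons known when the reads were processed. The members were chosen by measured values and by position. They are the records of the authors' contig list (a contig being a continuous stretch of stranded read coverage) of at least 200 nt with a signal of at least 0.5, with no ENSEMBL 65 exon on either strand and wholly within the span of a gene on the same strand. Of 677743 contigs, 53184 met the length and signal minimum. Of those, 1905 overlapped no exon and 380 were members. The other 1525 non-exonic contigs did not lie wholly within a gene span on their strand. Members made up 0.715% of the contigs above both minima and held 0.455% of their covered bases.

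The tissue was liver of C57BL/6J mouse embryos at day 18 of gestation, taken from littermates of mixed sex, with no treatment and no second group. Each of 2 libraries, labelled biological replicates 1 and 2, was made from poly(A)+ RNA longer than 200 nt after ribosomal RNA depletion and read as stranded pairs. The mm10 gene tables held 159127981 and 136904842 summed expected counts on mouse genes in replicates 1 and 2, and the mm9 junction list held 125662357 and 105325114 reads in the libraries it numbers R1 and R2. All 6 hepatocyte markers and all 7 erythroid markers examined stood at 10 TPM or more in both replicates. The 4 pancreatic acinar markers summed to 49.3 TPM in replicate 1 and 0.740 TPM in replicate 2, and their part in the results was not tested.

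The labels state that male and female littermates were pooled for both replicates, but the 2 libraries differed in sex-linked genes. Xist, the RNA that coats the inactive X chromosome, had 99.1 TPM (transcript abundance scaled for length and depth) in replicate 1 and 0.0200 in replicate 2, and its junctions had 9814 reads in R1 and 1 in R2. In the mm9 gene table, however, Xist had an RPKM (read density per kilobase, scaled to depth) of 0.0362 under number 1 and 27.0 under number 2. The Y-linked gene Ddx3y showed the opposite values, with 0 and 13.6 TPM, 0 and 4132 junction reads, and an RPKM of 2.42 and 0.000333. RPKM values are therefore given by their number, and neither they nor R1 and R2 are tied to a labelled replicate.

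Introns are removed from most messenger RNAs before export, so coverage within one that exceeds its surroundings can have several sources known from other work. These include exons missing from an annotation, alternative first exons behind a promoter within the gene, terminal exons that end at a poly(A) site inside an intron, introns that stay in the transcript, separate non-coding genes, and processed pseudogenes. A processed pseudogene is a copy of a spliced messenger RNA inserted elsewhere in the genome, often in an intron. Reads from its parent gene can match both places when the sequences are nearly the same.

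To see what lies at each member in a later annotation, GENCODE M21 (mm10) was consulted without converting any coordinate. An intron was matched when the same gene held 1 intron of exactly the same length in both annotations, and features were read at the same distance from the exon. Of 380 members, 333 were in a matched intron, and the median share of a host gene's exon edges found at the same distance was 100%. For some members the share was lower, so the match was less complete there. At the place of the member, M21 listed an exon of the host gene alone for 52 members and a pseudogene for 43. It listed another gene for 19 and no exon on that strand for 219. The introns of the other 47 members were not matched. Where several kinds overlapped a member, a pseudogene took precedence, then another gene, then the host. An overlap of any length counted.

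The sequences that follow show the pseudogene group, in which 39 of 40 pseudogenes resembled a coding gene, as processed pseudogenes do by definition. Each pair is a stretch of 120 bases, taken where the pseudogene and the coding sequence of the gene most like it differed most, with differing bases in capitals, from GENCODE M21 transcripts. Rps19-ps6 (mm10 chr12:110898114-110898551, plus strand) lay at the member in an intron of Tecpr2, an autophagy gene, and resembles Rps19, a protein of the small ribosomal subunit. The stretch spans positions 271 to 390 of the pseudogene and of the coding sequence.
Rps19-ps6: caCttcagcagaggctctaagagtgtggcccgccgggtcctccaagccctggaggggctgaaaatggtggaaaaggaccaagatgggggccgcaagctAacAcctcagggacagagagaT
Rps19: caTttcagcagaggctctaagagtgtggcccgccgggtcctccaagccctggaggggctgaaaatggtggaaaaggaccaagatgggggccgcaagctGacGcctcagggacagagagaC
Gstp-ps (mm10 chr1:192073820-192074450, minus strand) lay at the member in Traf5, a signalling adaptor gene, and resembles the glutathione S-transferase genes Gstp2 and Gstp1. The stretch spans positions 41 to 160 of the pseudogene and 43 to 162 of the Gstp2 coding sequence.
Gstp-ps: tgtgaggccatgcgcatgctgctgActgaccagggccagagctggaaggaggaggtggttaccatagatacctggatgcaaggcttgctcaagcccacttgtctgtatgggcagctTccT
Gstp2: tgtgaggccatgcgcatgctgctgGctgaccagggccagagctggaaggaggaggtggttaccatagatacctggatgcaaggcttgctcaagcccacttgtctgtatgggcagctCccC
Pdcd5-ps (mm10 chr1:189277443-189277823, minus strand) lay at the member in Kcnk2, a potassium channel gene. It is identical to the coding sequence of Pdcd5, a gene linked to apoptosis, over all 381 aligned bases, of which positions 1 to 120 are shown.
Pdcd5-ps: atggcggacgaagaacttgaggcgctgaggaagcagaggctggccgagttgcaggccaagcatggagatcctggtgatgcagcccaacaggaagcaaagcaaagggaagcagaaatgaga

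A different kind of repetition was seen in Firre, an X-linked long non-coding RNA gene known for a repeated RNA domain and for its role in nuclear organisation. M21 held 8 Firre exons of 140 to 300 nt that lay at members and had an edge on a junction end. Of these, 6 were copies of one another, with 91.6% to 98.7% identity over their 15 pairs, and the other 2 were not. The 3 copies of 155 nt are shown with the 5 positions at which they differ in capitals, followed by 1 exon that is no copy, all on the minus strand of mm10.
chrX:50595461-50595615: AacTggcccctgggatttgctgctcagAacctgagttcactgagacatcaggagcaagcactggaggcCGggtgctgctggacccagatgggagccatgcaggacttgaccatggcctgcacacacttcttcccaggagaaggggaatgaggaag
chrX:50598134-50598288: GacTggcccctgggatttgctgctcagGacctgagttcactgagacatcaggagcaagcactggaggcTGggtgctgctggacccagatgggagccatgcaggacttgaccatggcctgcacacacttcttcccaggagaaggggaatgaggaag
chrX:50600744-50600898: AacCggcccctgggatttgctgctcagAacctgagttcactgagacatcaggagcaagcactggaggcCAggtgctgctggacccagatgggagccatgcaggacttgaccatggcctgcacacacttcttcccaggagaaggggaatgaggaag
chrX:50584679-50584847: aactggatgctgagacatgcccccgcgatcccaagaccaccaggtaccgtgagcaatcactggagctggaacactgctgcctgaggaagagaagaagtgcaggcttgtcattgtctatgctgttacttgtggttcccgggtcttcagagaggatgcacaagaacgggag
The exon of 169 nt had 56.5% to 59.3% identity to the copies. Finally, 2 exons are shown that M21 gives to the host gene and that have 1 edge exactly on a junction end of this study. The Fars2 exon is the start of a non-coding transcript of a mitochondrial phenylalanyl-tRNA synthetase gene, and the Mgam exon codes for part of maltase-glucoamylase, an enzyme of starch digestion.
Fars2 chr13:36326958-36327012, plus strand: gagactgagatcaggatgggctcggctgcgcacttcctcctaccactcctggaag
Mgam chr6:40745177-40745331, plus strand: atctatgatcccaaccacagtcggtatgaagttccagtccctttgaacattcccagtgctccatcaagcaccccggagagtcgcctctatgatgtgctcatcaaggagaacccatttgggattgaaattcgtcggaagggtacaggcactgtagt

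The signal is a value pooled by the authors over both replicates, on a scale that the sources used here do not give. The number of covered bases per base of contig was 65.4 times the signal at the median (1% to 99% range 64.1 to 66.8), so the minimum of 0.5 stood for a mean coverage of about 32.7 reads. The median signal was 1.00 (quartiles 0.666 and 2.28) and the highest was 2190. The median length was 690 nt (quartiles 340 and 1719) and the longest member had 47715 nt. All 380 members had a score of 0 in the field that holds the authors' reproducibility score, as did 99.8% of the contigs above both minima and 30.1% of all contigs. The 3 members just inside the signal minimum lay in ENSMUSG00000085661, Gm15710 and Ralgapa2 with signals of 0.5, 0.501 and 0.502. Of contigs that met the rest of the rule, the 3 just outside lay in ENSMUSG00000091454, Ralgapa1 and Serpinb6b with 0.498, 0.493 and 0.492.

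**Figure D1:**
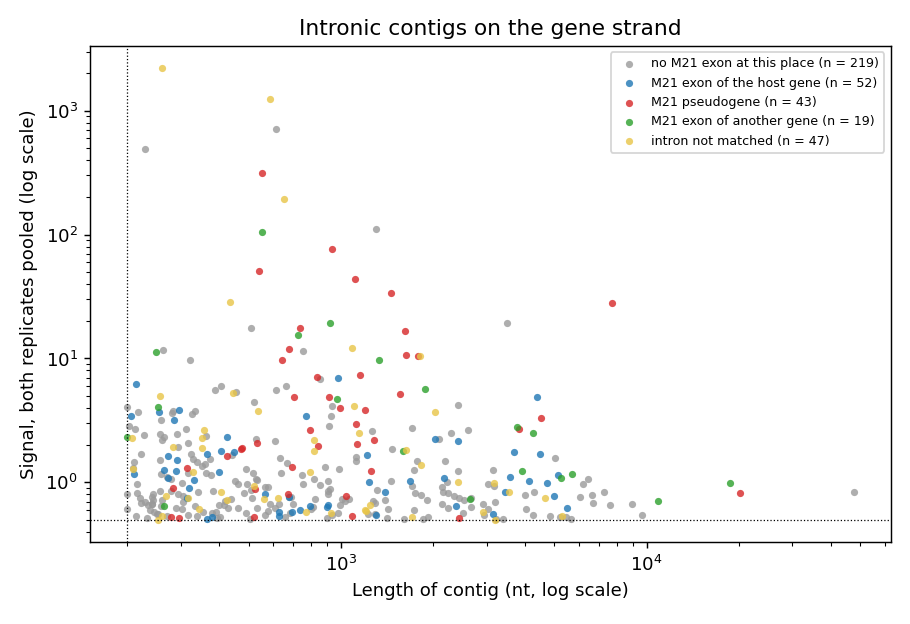
Signal of each of the 380 members, pooled over both replicates, against its length in nt, both on log scales, with points coloured by what GENCODE M21 lists at the same place of the same intron. Dotted lines mark the minimum signal of 0.5 and minimum length of 200 nt, 190 of the 380 members lie below a signal of 1, and members over pseudogenes are spread up to a signal of 316.

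The 12 highest members lay in hosts with a mean RPKM of at most 1.43, and none was longer than 1458 nt. In ENSMUSG00000085916, which had an RPKM of 0 in both libraries, a member of 261 nt on chromosome 17 (71312985 to 71313245, mm9) reached 2190. Members in Cmss1, Gphn (gephyrin, a synaptic anchoring and cofactor synthesis protein) and Il31ra (a cytokine receptor) followed with 1250, 706 and 495. Tecpr2 held the next one, with 316, at Rps19-ps6. Slc22a29, Camk1d and Commd10 held members with 195, 111 and 105. The 12 highest were completed by Btbd9 (77.2), Kcnk2 (50.4), Traf5 (43.8) and Lpp (33.5). Pseudogenes were listed at 5 of these 12, namely those in Tecpr2, Btbd9, Kcnk2, Traf5 and Lpp, beside 11.3% of all members. The intron could not be matched for 3, the highest pair among them, no exon was listed at 3 and another gene at 1. The 12 together held 68.5% of the covered bases of all members, and the highest alone held 15.3%. None of the 12 was joined to an exon of its host by 5 or more junction reads.

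The longest members had signals near the minimum over many kilobases. March3, which codes for a membrane ubiquitin ligase, held contigs of 47715 and 20148 nt with signals of 0.841 and 0.819, and its 4 members summed to 72721 nt of an intron of 113231 nt. St3gal5 (the ganglioside GM3 synthase) held one of 18743 nt with 0.998, and Picalm (a clathrin assembly protein) one of 10897 nt with 0.707. All of these lay in the first intron. M21 lists a pseudogene at the March3 contig of 20148 nt, but its transcript has only 727 nt. It aligned to no coding gene other than the host. At the contigs in St3gal5 and Picalm, M21 lists unclassified transcripts of other genes. Zfp652 (9676 nt, 0.545) and Hacd2 (8932 nt, 0.668), a gene of fatty acid elongation, had theirs in introns 7 and 3, and Sox6, a transcription factor gene, held 8850 nt of members. The signal over the rest of the same intron was close to that of the member in March3 (ratio 1.24 and 1.12) and higher than it in St3gal5 (0.423) and Picalm (0.735). Contigs that also cover an exon count in the rest at their whole signal.

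The 380 members lay in 295 gene spans, or 293 genes when a member in several spans was given to the smallest. The median span of the 293 was 90732 nt. Their mean RPKM was at least 1 in 172 cases, at least 10 in 36 and under 0.1 in 53, with a median of 1.27. Of the 8875 genes with at least 2 exons and a mean RPKM of at least 1, 174 were hosts when all 295 spans were counted. These 174 had a median span of 79465 nt and a median RPKM of 3.28, and the 8701 that were no hosts had 21050 nt and 3.32. At this level hosts were therefore longer at the median, with nearly the same median RPKM. M21 calls the host protein coding for 338 members. The span comparison is a description, since longer introns offer more room for a contig.

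Members lay all along their genes. The first intron held 124 of 380 members, or 32.6% (95% Wilson interval 28.1% to 37.5%, counting error only), while first introns made up 25.8% of the intron length of the hosts. The last intron held 43 members (11.3%) and 7.82% of the length. Both length shares are sums over all hosts, so the longest hosts weigh most, and the 4 with a span over 1 Mb held 15 members. The sums also count intron bases under exons of other genes, where no member could lie. Members of 1 gene are not independent, so no test was made. The median distance to the nearest host exon was 3498 nt, 91 members lay within 1000 nt of one, and 2 within 50 nt. Members were nearer the upstream exon in 182 cases and nearer the downstream exon in 198.

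The signal exceeded the mean signal of the rest of the intron 6.54 times at the median (quartiles 1.44 and 51.7), and 10 times or more for 161 members. In 10 introns no other contig was listed. For 105 members the ratio was under 2. Contigs that run from an exon into the intron entered the mean of the rest at their signal over the whole contig. Exon coverage can therefore lower the ratio, and its part was not tested. The other contigs of the strand covered 55.5% of the rest of the intron at the median. A member spanned at least 50% of its intron in 13 cases. On the opposite strand, a contig was listed over 64 members, and it reached the member's own signal in 8.

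The signal of a member relative to its host's level had a median of 0.727 over hosts with an RPKM above 0, and 169 members had a signal above the host RPKM. These are 2 different scales, so only the order among members can be read. Over hosts with a mean RPKM of at least 1 the median was 0.285. High ratios among those hosts were found in Gphn (550), Commd10 (73.5), Lpp (28.0), Ptk2 (9.12), Lyrm4 (7.93), Ift80 (6.39) and Firre (3.36). M21 lists a pseudogene at the member in Lpp, Ptk2, Lyrm4 and Ift80.

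**Figure D2:**
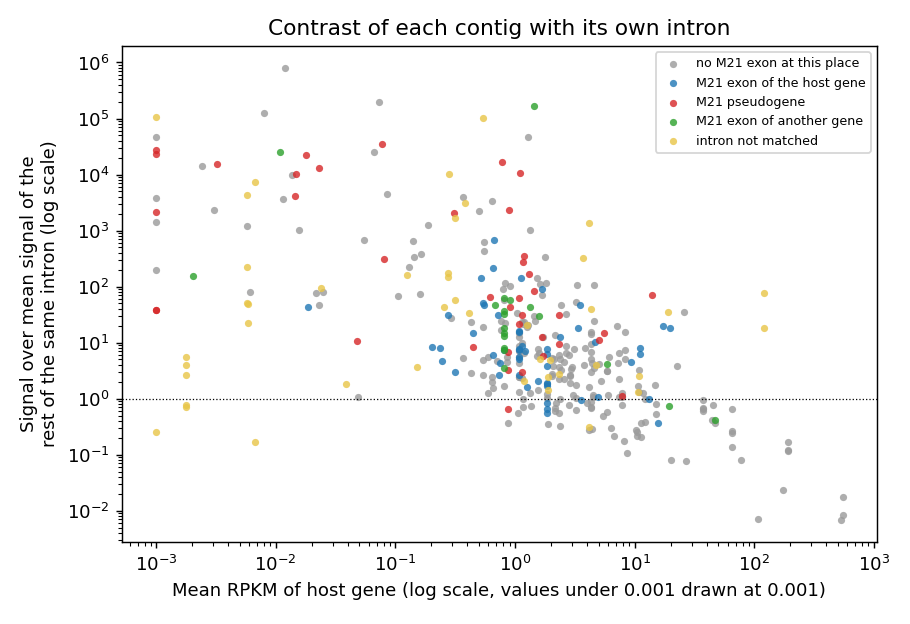
Signal of each member divided by the mean signal of the rest of its intron against the mean RPKM of its host gene, both on log scales, coloured by what GENCODE M21 lists there. Points over pseudogenes lie mostly high on the axis (median ratio 65.5), points over exons of the host gene lower (median 7.37), and the members in Igf2, Hpx and Apoh lie lowest, far below the dotted line at a ratio of 1.

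Splice junctions were not used by the rule. A junction end lay within a member, or within 5 nt of its edge, for 322 of 380 members, 84.7% (95% Wilson interval 80.8% to 88.0%, counting error only). The share was 81.0% over the 1525 other non-exonic contigs (79.0% to 82.9%). At 5 or more reads the shares were 64.7% and 58.4%. The values of the 2 libraries were 76.3% in R1 and 78.4% in R2.

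A junction to an annotated exon edge of the host was less common. At 5 or more reads on a side, 112 members (29.5%) were joined to a host exon, in both libraries for 109 of them. The join led only to the exon downstream for 50 members, only to the exon upstream for 35 and to both for 27. Alternative first, alternative last and cassette exons would be joined in these ways. Only joins to annotated host exons were counted, however, so the classes do not tell these kinds apart. In Chd9 and at an Mgam member, both joined upstream only by 61 and 18 reads, the strongest junction led elsewhere in the host intron, with 307 and 263 reads. The other 268 members had no such join. Joined reads summed to 11956 in R1 and 9317 in R2, a ratio of 1.28, beside 1.19 for the whole list. Median lengths were 530 nt for members joined downstream, 993 nt for those joined upstream, 887 nt for those joined on both sides and 686 nt for those not joined.

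Adk, the gene of adenosine kinase, is known in a long and a short form with different first exons. Its first intron held a member joined only downstream (chromosome 14, 21895148 to 21896127, mm9, signal 6.91). Junctions to the next annotated exon had 758 reads from it in R1 and 587 in R2, which were 50.7% and 44.6% of the reads that ended at that exon. Ypel5 had 577 and 369 such reads, 34.6% and 31.6%. In Fars2 they numbered 1145 and 296, 66.0% and 38.5%, so the 2 libraries differed there by more than the median difference over such members. M21 lists an exon of the host at the member in all of Adk, Ypel5 and Fars2. In the St5 gene the share was 76.9% and 87.1% of reads.

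The Ctbp1 gene, whose transcriptional co-repressor is also known in long and short forms, carried a member of 2032 nt in its first intron (chromosome 5, 33611770 to 33613801, signal 2.23). It was joined upstream by 554 reads in R1 and 373 in R2, which were 84.6% and 89.7% of the reads that left the upstream exon. Downstream joins had 699 and 554 reads, 88.1% and 94.2% of those that reached the exon. In both libraries most junction reads at both of these sites led to the member. Both ends of an M21 exon of Ctbp1 stood exactly on these junction ends.

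In St3gal5 the longest member gave 1641 and 1199 reads to the exon downstream, 29.3% and 31.1% of the reads there, but received 21 and 16 from the exon upstream, under 1% of that exon's reads in both (0.718% and 0.884%). Hpcal1, a calcium sensor gene, was joined on both sides at 21.8% in both libraries upstream and 21.2% and 19.4% downstream. Gmpr (guanosine monophosphate reductase) had 19.7% and 24.3% upstream, and Rnf13 (a ubiquitin ligase) 18.6% and 28.3%. M21 lists no exon at the members in Gmpr and Rnf13. The Firre member of 4389 nt had 188 and 201 reads to the exon downstream, 45.1% and 46.3%.

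Among members joined only upstream, that in Ctse (cathepsin E, an aspartic protease) stood first. It took 436 reads in R1 and 557 in R2 from the first exon, 75.7% and 77.3% of the reads that left it. This intron held 6 members, with signals from 0.652 to 6.87, and M21 lists no exon at any of them. Slc22a15 (of a family of organic ion transporters) had 204 and 192 such reads, 86.7% over both libraries, into a member of 4479 nt that M21 gives to the host. Wdcp had 78.4% and 72.0%, and Mrpl39, a mitochondrial ribosomal protein, 43.9% and 34.8%.

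Over all joined members, the median share was 28.2% in R1 and 26.7% in R2 at the downstream site of the 50 members joined there only, and 42.5% and 36.8% at the upstream site of 34 members joined there only. The 27 members joined on both sides had 6.67% and 11.7% upstream and 17.1% and 12.9% downstream. The median difference between the libraries was 3.05 points for the downstream group and 5.60 points for the upstream group, and the widest was 37.7 and 70.8 points. The widest of all rested on 1 and 5 reads. The share reached 50% or more at 18 of 50 downstream sites and 12 of 34 upstream sites.

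**Figure D3:**
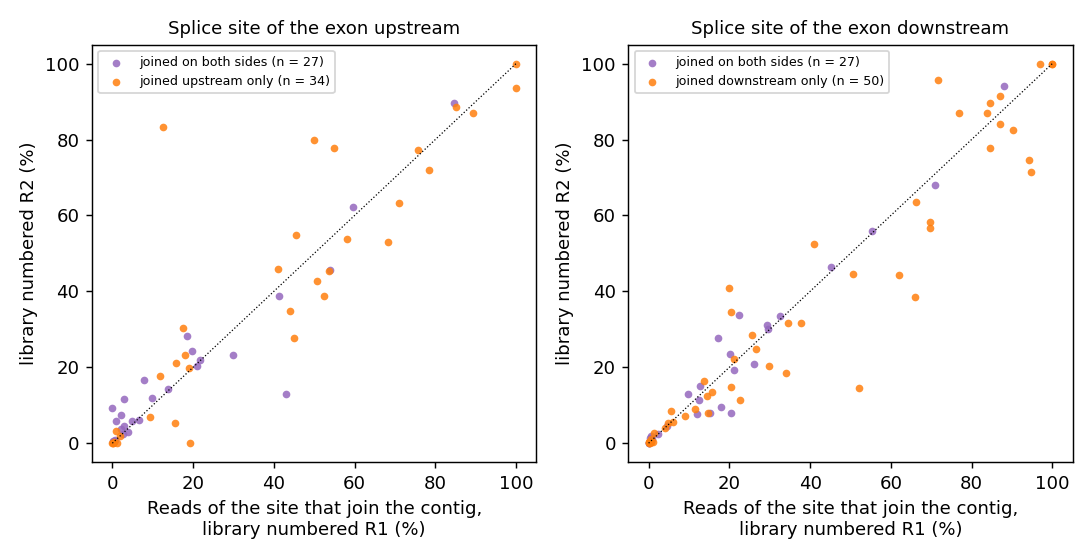
Share of junction reads at a host splice site that join the member, in the library numbered R1 against that numbered R2, for the exon upstream (left) and the exon downstream (right), with a dotted line of equality. Members joined on 1 side spread over the whole range up to 100%, those joined on both sides lie mostly low, and most points stay near the line.

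The strongest junction of a member led to various places. It had at least 5 reads for 191 members. The other end lay on a host exon edge for 83 of them, elsewhere in a host intron for 60, inside the member itself for 26, outside the host and any exon for 16, inside a host exon for 3 and in an exon of another gene for 3. The list carries a flag C, not defined in the sources used here, that is 1 for 99.7% of junctions it marks as annotated and for 26.5% of the rest, or 61.1% of the rest at 5 or more reads. It was 1 for all 83 junctions to a host exon edge and for 5 of the 16 that led outside.

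The member with the most junction reads of all, in St6gal1 (a sialyltransferase gene of the liver), had no join to its host. A junction of 342955 nt with flag C at 0 ran from it to an exon of Ahsg, which encodes the abundant plasma protein fetuin-A, with 2135 reads in R1 and 1624 in R2. In Ercc8, a DNA repair gene, the strongest junction spanned 203441 nt to a place with no exon and had 680 and 1046 reads, also with flag C at 0. In Smo and Sos2 the reads, 1596 and 1483 in all, were nearly all between points within the member. None of these 4 members was joined to a host exon by 5 or more reads.

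Junctions were frequent where M21 later placed an exon of the host gene and of no other gene. Of the 52 such members, 44 (84.6%) were joined to a host exon, and for 43 the strongest join ended exactly on an edge of the M21 exon. Joins ended on M21 exon edges on both sides for 6, namely Ctbp1, Hpcal1, Rev1, Pot1b, Dennd6b and a Firre member whose 2 edges belong to different exons. The transcripts holding these exons were protein coding for 28 members, processed transcripts without a coding sequence for 25, subject to nonsense-mediated decay for 6 and retained introns for 5, with some members counted under several. Of the 219 members with no M21 exon, 56 (25.6%) were joined, 30 of them downstream only, 12 upstream only and 14 on both sides. Of the 43 members at pseudogenes, 2 (4.65%) were joined.

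Mgam held 13 members, more than any other host, over 2 of its introns. Signals ran from 0.54 to 3.41, lengths from 206 to 735 nt, and 7 of 13 were joined to a host exon. Each of the 13 had between 219 and 604 junction reads with an end inside it. For the 6 without a host join, the strongest junction led elsewhere within the introns of Mgam, with 96 to 263 reads. M21 lists an exon of Mgam at 7, among them the coding exon printed above. The gene itself had 3.20 TPM in replicate 1 and 3.14 in replicate 2. Firre held 11 members in 1 intron of 50393 nt, with signals from 0.548 to 6.18. M21 lists a Firre exon at 9, and 10 were joined. Its level was 10.4 and 11.2 TPM. Because 6 of its exons are near copies, a read can match several of these members, and the share given to each is uncertain.

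Gm20388 also held 11 members, but in a span of 4434882 nt that covers many other genes. M21 lists other genes at 9 of them, the non-coding RNA gene Gm42047 at most, and none was joined to a Gm20388 exon. Its RPKM was 0 under number 1 and 1.61 under number 2. Cyp2c68 and Hsd3b3, members of large families of drug-metabolising and steroid enzymes with close copies, held 4 members each in introns of highly expressed genes. Their signals, 0.505 to 2.23 and 2.42 to 3.74, were below the mean of the rest of the intron in all 8. That mean counts contigs that also cover an exon at their whole signal. Gopc held 3 members at 1 pseudogene, Gm6627, with signals of 11.9, 7.15 and 2.04. An ENSEMBL gene outside M21, ENSMUSG00000091872, held 5 and Abi1 held 3.

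The 43 members lay at 40 M21 pseudogenes, and 39 of these aligned to the transcript of a protein-coding gene other than the host (BLAST, plus strand). Identity had a median of 98.4% and a range from 87.6% to 100%, with at least 95% for 35. The most similar gene had 10 TPM or more in both replicates for 32 of the 39, beside 24.3% of all 21474 coding genes, and 100 TPM or more for 15, beside 3.30%. These shares are a description, since highly expressed genes are known to leave more processed copies. The members were also chosen by signal, to which reads of a similar expressed gene could add. Pseudogenes outside the members were not examined. Among equally similar genes, the one with the higher TPM in replicate 1 was taken. How the authors placed reads that match several sites is not given in the sources used here, and the part of such reads in the signal was not tested.

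The single pairs had these values. Rps19 stood at 443 TPM in replicate 1 and 501 in replicate 2, with 98.9% identity over 438 bases, while Rps19-ps6 itself was given 11.4 and 9.91 TPM. Pdcd5, identical in sequence, stood at 73.2 and 93.0 TPM, and Pdcd5-ps was given 3.82 and 1.66 TPM. Gstp-ps was closest to Gstp2 (99.2% over 631 bases), which had 2.92 and 2.12 TPM, but was also 97.6% identical to Gstp1, which had 332 and 306 TPM. In Lpp, Morf4l1-ps1 was 99.8% identical to Morf4l1 at 129 and 130 TPM. The member in Ddah1, of 7702 nt with a signal of 28.3, held Rpl36a-ps2, 100% identical to Rpl36a at 870 and 1074 TPM over 321 bases. Krt8-ps in Nlrp4e was 98.6% identical to Krt8, a keratin of epithelial cells including hepatocytes, at 85.4 and 69.8 TPM.

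**Figure D4:**
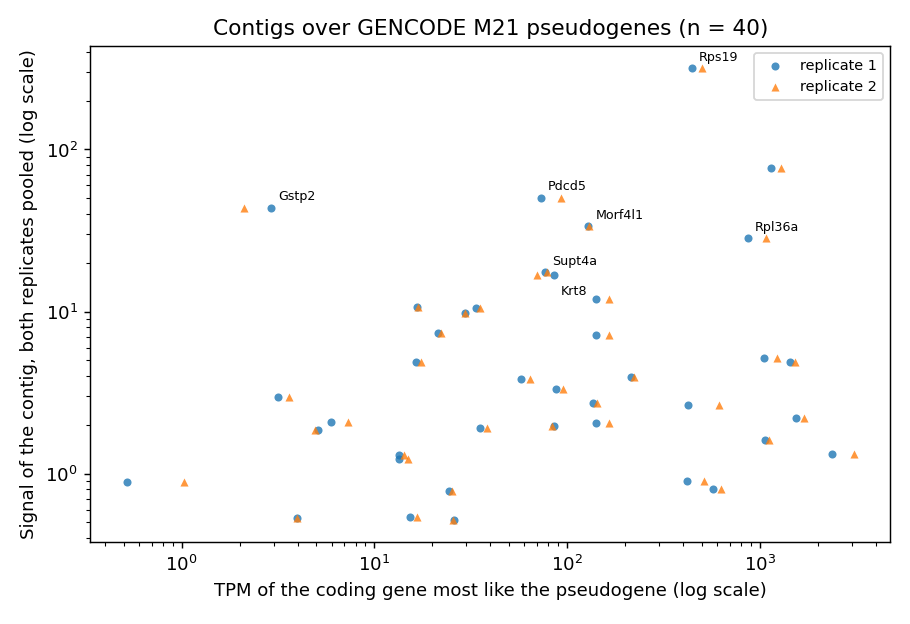
Signal of the members at GENCODE M21 pseudogenes against the TPM of the coding gene most like the pseudogene, in replicate 1 (circles) and replicate 2 (triangles), both on log scales, for the 40 members whose match had a TPM. Names mark 7 coding genes of high members, from Rps19 at a signal of 316 down to Krt8 at 16.8, and Gstp2 is the only named one below 10 TPM.

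Separate genes were listed at 19 members. Apart from Gm42047 they included Peg13, an imprinted non-coding RNA known to lie within Trappc9. The member there had 5711 nt, a signal of 1.17 and 42.9 times the signal of the rest of the intron, with no join to Trappc9. Other such members lay in Commd10, Sv2c, Pknox1, Zdhhc19, Slc39a10, Net1, Picalm, St3gal5 and Eipr1. At the member in Slc39a10, the lincRNA Gm28151 had 1.45 TPM in replicate 1 and 1.69 in replicate 2.

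Host genes were counted in 10 lists of gene groups, among the genes of each list with a mean RPKM of at least 1 and at least 2 exons. Over all 8875 such genes, 174 (1.96%) were hosts. Of 34 plasma protein genes 2 were hosts (5.88%), namely Apoh and Hpx. Apoh (beta-2-glycoprotein I, with 2906 and 3152 TPM) had members with signals of 1.69 and 1.29, which were 0.0173 and 0.00844 times the signal of the rest of their introns. Hpx (haemopexin, the haem carrier of plasma, with 755 and 734 TPM) had 1 member with a signal of 0.716 and a ratio of 0.00723. The signal of the rest includes contigs that run in from an exon, taken at their signal over the whole contig. The part of exon coverage in these low ratios was not tested.

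Of 24 genes of hepatocyte metabolism 1 was a host (4.17%). Of 13 hepatocyte transcription factors 1 was a host (7.69%), Nr1h4, the bile acid receptor, with a member of 5013 nt and a signal of 1.58 in its first intron. Of 44 erythroid genes 1 was a host (2.27%), Uros, an enzyme of haem synthesis, with a member of 0.621. Of 20 chromatin regulators 1 was a host (5.00%), the histone methyltransferase gene Nsd1, whose member (0.746) was joined downstream by 57 and 42 reads and lies at an M21 exon of the gene.

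Of 15 non-coding and imprinted genes 2 were hosts (13.3%). Airn, the imprinted antisense RNA, had a member of 0.977. The growth factor gene Igf2 had one of 1.2 that was 0.00691 times the rest of its intron, with the same limit as for Apoh and Hpx. No gene was a host among 24 of other blood lineages, 51 splicing factors, 20 of RNA decay and polyadenylation and 9 of the circadian clock. With 0 to 2 hosts in each, the lists are given as counts only.

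Assembled models gave a value for each library at many members. The authors' assembly had an exon on the same strand over 281 members (73.9%), covering at least 50% of the contig for 183. In this table an exon carries the summed RPKM of the transcripts that hold it. The median was 0.239 in the library numbered 1 and 0.207 in that numbered 2. Of the 257 members with both values above 0, 211 were within 2-fold and 46 beyond. The median log2 ratio of number 2 over number 1 was -0.14, and 24 members had at least 1 value of 0.

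Host genes could be compared between the replicates as whole genes. With 1 library on each side there is no test. The 2 libraries also differed in Xist and Ddx3y, so sex and replicate cannot be told apart in these ratios. Of the 295 hosts, 284 were in the mm10 tables and 245 had a mean count of at least 50. Their median log2 ratio of replicate 2 over replicate 1 was 0.03 (quartiles -0.12 and 0.14), and that of all 14956 genes at this count was 0.00 (-0.14 and 0.14). Beyond 2-fold lay 2 hosts (0.816%), against 1.82% of all genes. Both were lower in replicate 2, as were 1.47% of all genes. They were Cyp3a44, a cytochrome P450 with close copies, with 5.80 and 2.33 TPM (log2 ratio -1.43), and Mfsd4b1, with 1.82 and 0.900 TPM (-1.13). Among hosts with a mean count of at least 100, the next lowest were Upp2 (-0.80), Myl4 (-0.77) and Cdk5rap1 (-0.74). The highest were Srp54a and Slc4a9 (0.67 each), BC117090 (0.50), Cux2 (0.49) and Arhgap23 (0.45).

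**Figure D5:**
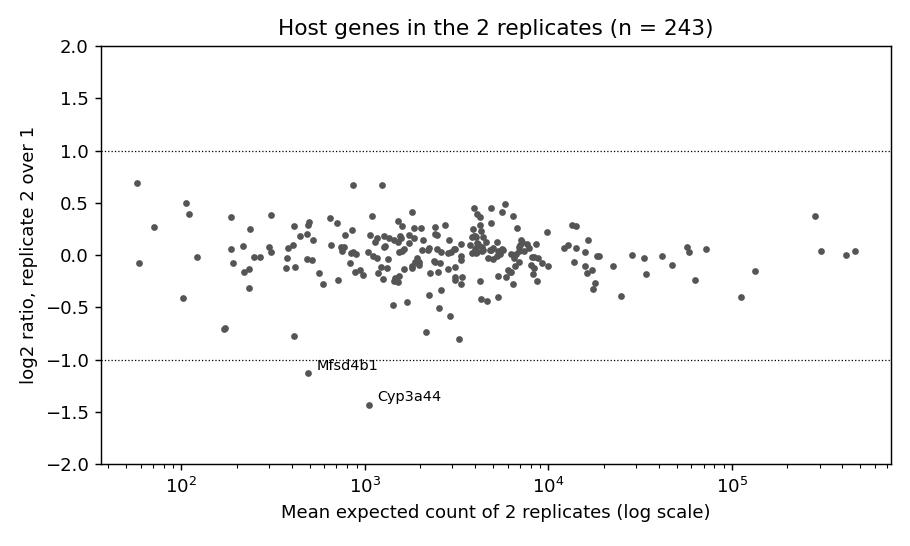
Log2 ratio of replicate 2 over replicate 1 of the host genes against their mean expected count (log scale), for the 243 genes with a mean count of at least 50 when each member is given to its smallest host span. Dotted lines mark 2-fold, and only Cyp3a44 and Mfsd4b1 lie outside them.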

How the data were processed

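The authors' tables were used as deposited. On mm9, the contig list gives a signal pooled over both replicates and a score, the junction list gives whole read counts per library, and the ENSEMBL 65 and Cufflinks-assembled tables give RPKM attributes, per the file headers and the notes deposited with them. On mm10 with GENCODE M4, the authors deposited expected counts and TPM per gene and transcript. No source used here names the aligner, the mm10 quantifier or the rule for reads with several matches.

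Expected counts of mouse genes were rounded and scaled by TMM (edgeR 4.0.16, R 4.3.3), with 0.5 added before log2. DESeq2 1.42.0 size factors were an alternative. Pseudogenes were aligned with BLAST+ 2.17.0 (e-value 1e-10). The rule for members and the 2-fold count were tested on simulated data, and the other steps were not. With 1 group no contrast between conditions exists. The labels name 2 biological replicates of separate biosamples under 1 shared donor entry, so the spread between them may be partly technical. That spread also cannot be told apart from the difference in sex-linked genes between the 2 libraries.

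The members, the 10 host gene lists and the naming rule (the 12 members of highest signal, the 6 longest, the 8 with most junction reads, list hosts, those at the signal minimum, and hosts extreme in number, summed length, signal over RPKM or replicate ratio) were chosen with earlier results of these data known. The M21 match, the Firre copies and examples outside the rule (such as Ypel5, Gmpr, Rnf13, Hpcal1, Slc22a15, Krt8-ps and Peg13) were chosen after their values were seen. Some members that meet the naming rule are not reported here.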

Additional observations from a re-analysis of the deposited data

How the results depend on the processing

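The number of members and of hosts followed the signal minimum. At 0.25 there were 1307 members in 946 hosts, and at 1 there were 190 in 144. At a length of at least 500 nt 237 members were left. The other limits, namely 100 nt, exon overlap on the gene strand only, a score of at most 0.1, 50 nt from an exon and, added after seeing the data, host spans of at most 1 Mb, gave 365 to 468 members. The limit on the score could change nothing, since all members had a score of 0. Hosts numbered 200 to 355 under all limits other than the signal. The share with a junction end inside was 64.7% at 5 or more reads and 76.3% to 78.4% when 1 library was left out. The median signal over host RPKM was 0.285 over hosts with an RPKM of at least 1, and 0.588 to 0.830 with 1 RPKM number left out. Assembled exon values had medians of 0.207 to 0.239 when 1 library was left out. The share of hosts beyond 2-fold was 3.87% with no filter on low counts and 0.408% on deposited TPM. Except for the constructions named, the cause was not tested. No paired analysis was possible because there is 1 group. Membership at another depth was not tested.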
